A study of Saccharomyces cerevisiae with 12 samples.

Results

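The control cultures are the untreated arm of a yeast RNA-seq study of tetracyclines, and they are described here on their own, as an expression state. They were all samples labelled Control, 3 of the 12 in the series. The other 9 cultures were grown with Tet, Dox or 4-ED, 3 cultures with each, at 1.5 μg/ml. All 4 groups were of Saccharomyces cerevisiae strain R1158, a MATa haploid with the genotype URA3::CMV-tTA his3-1 leu2-0 met15-0, which the labels name by its parent BY4741. The control cultures therefore carried the tTA transactivator too, the activator that drives Tet-Off promoters, and 1 strain stood for the species. Cultures were grown in YPD, a rich medium with glucose, inoculated from a mid-exponential culture that itself came from a saturated one, and were pelleted at a set optical density. By the methods, the control cultures grew at normal rates, and the treated cultures grew slowly and took longer to reach that density.

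Each locus had 1 control value in FPKM, a fragment count scaled by the length of the locus and by the mapped reads of the library, computed by the authors from all 3 control libraries together. The spread between the cultures was therefore not measurable, and no interval, replicate error or test could be given for any value below. Values were taken from the table that sets Dox against control. The control values of the other tables differed from them by a near-constant factor, with a median of 0.984 (range 0.984 to 0.986) in the Tet table and of 0.978 (range 0.972 to 0.992) in the 4-ED table, over 6545 loci of at least 1 FPKM. The factor moved no gene relative to another by more than that range. The depth behind a single locus is unknown. FPKM was lower in longer loci. Among protein-coding loci the median was 203.8 FPKM under 300 bp, 108 FPKM from 300 to under 1000 bp, 51.9 FPKM from 1000 to under 2000 bp and 26.1 FPKM from 2000 bp up. The part of locus length in the levels of short genes was not tested, except by the alternatives in the closing section.

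Budding yeast ferments glucose even in air. While glucose is plentiful, the Snf1 kinase is inactive, the repressor Mig1 sits in the nucleus, and genes for respiration, for gluconeogenesis, for the use of other sugars and for high-affinity glucose uptake are held low. When glucose runs down, Snf1 relieves the repression, the activators Cat8, Adr1 and Hap4 come into play, and the general stress factors Msn2 and Msn4 act through the stress response element. Fast growth goes with high transcription of the genes that build ribosomes and that carry cells through Start and S phase.

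Promoters of 7 genes are printed here because the gene groups below are textbook targets of short DNA words, and the sequences show where these words lie in genes at the top and the bottom of the range of FPKM. Each runs from 250 bases before to 50 bases after the annotated start of the gene, 5′ to 3′, on build R64 from the RefSeq genome. For each word and list, the highest member that holds the word is shown, and the lowest too for the PAC and MCB words. Capitals mark matches on either strand. They mark the stress response element AGGGG in SOD1 and TPS1, the Mig1 word in MAL33 (CCGGGG or its variant CTGGGG, or else GCGGGG or its variant GTGGGG), the PAC word GATGAG in EBP2 and UTP10, and the MCB word ACGCGT in RFA2 and CDC45.
SOD1, chrX:622965-623264 (minus strand): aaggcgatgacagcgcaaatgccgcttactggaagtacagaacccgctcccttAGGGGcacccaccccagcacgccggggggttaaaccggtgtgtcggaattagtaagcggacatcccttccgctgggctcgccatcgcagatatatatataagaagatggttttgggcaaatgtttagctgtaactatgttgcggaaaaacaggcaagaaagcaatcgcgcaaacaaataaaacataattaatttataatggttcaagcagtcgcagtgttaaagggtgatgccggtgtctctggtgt
TPS1, chrII:490343-490642 (minus strand): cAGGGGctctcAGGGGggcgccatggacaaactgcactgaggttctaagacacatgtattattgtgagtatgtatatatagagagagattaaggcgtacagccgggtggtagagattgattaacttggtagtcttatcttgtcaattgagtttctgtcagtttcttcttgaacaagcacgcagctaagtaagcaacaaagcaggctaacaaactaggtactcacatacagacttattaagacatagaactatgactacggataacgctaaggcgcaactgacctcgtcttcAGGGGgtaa
MAL33, chrII:800273-800572 (+ strand): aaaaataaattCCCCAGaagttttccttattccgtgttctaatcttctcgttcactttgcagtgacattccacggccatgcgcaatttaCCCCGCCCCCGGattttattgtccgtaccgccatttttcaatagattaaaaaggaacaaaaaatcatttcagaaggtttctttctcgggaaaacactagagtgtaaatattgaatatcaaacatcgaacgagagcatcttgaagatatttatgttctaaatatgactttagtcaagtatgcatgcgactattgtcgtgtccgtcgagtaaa
EBP2, chrXI:125509-125808 (+ strand): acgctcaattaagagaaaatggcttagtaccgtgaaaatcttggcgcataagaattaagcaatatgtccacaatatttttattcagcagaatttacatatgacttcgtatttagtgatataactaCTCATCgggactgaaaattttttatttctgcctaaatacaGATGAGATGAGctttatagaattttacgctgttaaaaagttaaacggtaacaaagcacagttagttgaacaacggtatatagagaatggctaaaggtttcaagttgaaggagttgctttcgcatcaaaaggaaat
UTP10, chrX:217260-217559 (minus strand): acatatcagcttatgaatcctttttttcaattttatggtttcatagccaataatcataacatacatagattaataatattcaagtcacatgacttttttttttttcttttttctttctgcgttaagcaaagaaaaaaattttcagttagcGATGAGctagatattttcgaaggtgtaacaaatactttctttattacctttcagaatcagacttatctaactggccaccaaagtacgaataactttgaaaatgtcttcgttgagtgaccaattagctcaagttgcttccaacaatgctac
RFA2, chrXIV:48037-48336 (+ strand): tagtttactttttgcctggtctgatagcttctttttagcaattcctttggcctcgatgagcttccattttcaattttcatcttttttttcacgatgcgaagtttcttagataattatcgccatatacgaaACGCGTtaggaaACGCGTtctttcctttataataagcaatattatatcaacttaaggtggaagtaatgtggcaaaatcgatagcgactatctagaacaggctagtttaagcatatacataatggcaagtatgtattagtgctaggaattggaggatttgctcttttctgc
CDC45, chrXII:345892-346191 (minus strand): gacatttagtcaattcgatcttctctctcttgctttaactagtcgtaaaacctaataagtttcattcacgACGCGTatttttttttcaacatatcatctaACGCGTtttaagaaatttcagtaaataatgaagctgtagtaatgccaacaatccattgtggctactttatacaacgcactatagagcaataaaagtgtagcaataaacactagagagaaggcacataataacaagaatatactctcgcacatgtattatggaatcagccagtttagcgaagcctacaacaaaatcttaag
SOD1 was at 16971 FPKM and TPS1 at 768 FPKM in the control cultures, and MAL33, a maltose activator gene, was at 62.9 FPKM. EBP2 and UTP10 hold the same word at 297 and 8.75 FPKM, and RFA2 and CDC45 share another at 74.6 and 3.60 FPKM. A match is a description of letters and not a bound site.

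The 20 highest protein-coding loci held 19.6% of the summed FPKM of all loci, and 12 of the 20 were under 300 bp. YDR524W-C, of 90 bp, was first at 42193 FPKM, followed by SPO24 at 28983 FPKM. SIP18, a hydrophilin that protects against drying, was at 23564 FPKM. CUP1-2 and CUP1-1, identical copies of the copper metallothionein gene, were at 23123 and 23103 FPKM, and reads cannot be assigned to either copy. EGO4 was at 20709, HOR7 at 20552, TMA10 at 16108 and STF2, a factor that stabilises the inhibited ATP synthase, at 14648 FPKM. The remaining short loci among the 20 were CWP2, PMP1 and SPG1, at 10815, 9916 and 8233 FPKM.

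At 300 bp or longer the order began with HSP26 and SOD1. HSP26, a small heat shock chaperone, was at 18095 FPKM, and SOD1, the cytosolic superoxide dismutase, was at 16971 FPKM. HSP30, a stress protein of the plasma membrane, followed at 11634 FPKM and SPG4, needed in stationary phase, at 11114 FPKM. The cell wall mannoprotein gene CCW12 was at 11013 FPKM. QCR6 of the cytochrome bc1 complex, at 10794 FPKM, stood above TDH3, the main glyceraldehyde-3-phosphate dehydrogenase of fermentation, at 10372 FPKM. ZEO1, of the cell wall integrity pathway, was at 9900 FPKM. The top 100 loci of any kind held 40.8% of the summed FPKM and the top 1000 held 78.9%, out of 7060 loci with a value.

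**Figure D1:**
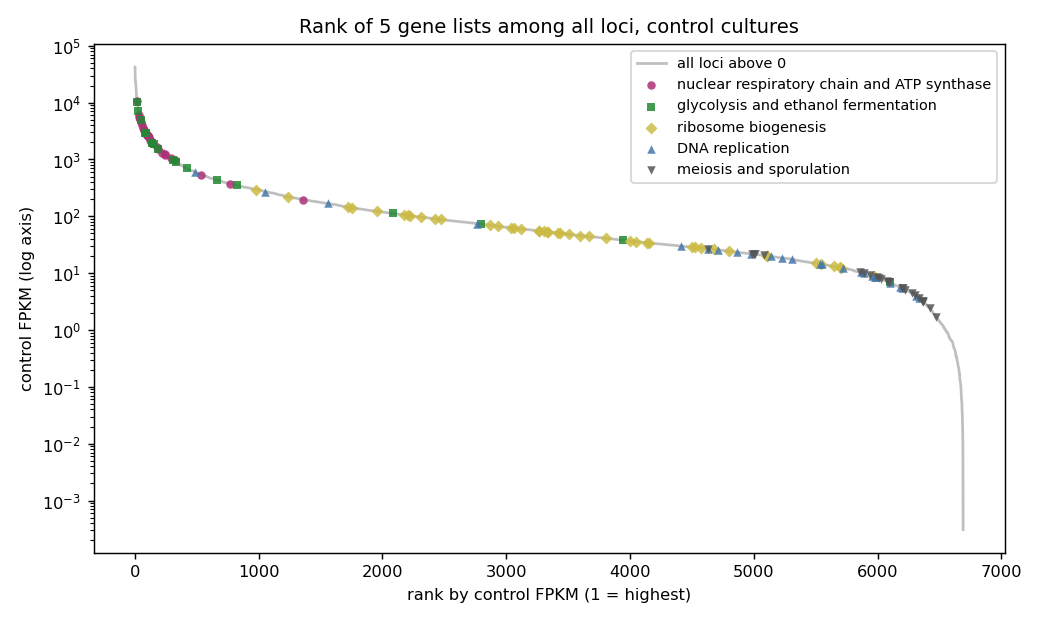
Control FPKM (log axis) against rank from the highest to the lowest locus, for all loci above 0 FPKM (grey line) and for the members of 5 gene lists (symbols). Respiratory chain genes crowd the upper end, with 31 of 33 in the top 10% of loci, ribosome biogenesis genes spread over the middle, and 14 of 25 DNA replication genes and 20 of 25 meiosis genes lie in the lowest 25%.

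Genes of glycolysis and ethanol fermentation were high as a group, but unevenly so. Of the 17 genes, 8 were at 1000 FPKM or more and the median was 996 FPKM, against 47.7 FPKM over all 7060 loci. The list held 2.13% of the summed FPKM. TDH3 was followed by TDH1 at 7029 FPKM, the aldolase gene FBA1 at 4890 FPKM, the triose phosphate isomerase gene TPI1 at 2977 FPKM, the main alcohol dehydrogenase gene ADH1 at 2924 FPKM and the phosphoglycerate mutase gene GPM1 at 1984 FPKM. Other genes of the list lay lower. The pyruvate kinase gene CDC19 was at 439 FPKM, PFK1 and PFK2, the subunits of phosphofructokinase, were at 112 and 73.1 FPKM, and HXK2, the hexokinase of cells on high glucose, was at 38.3 FPKM. PDC5, the reserve pyruvate decarboxylase, was lowest at 6.95 FPKM, against 906 FPKM for PDC1. CDC19, GPM1 and PGK1 overlap or adjoin other loci and were merged with them in the deposited tables. The word of the glycolytic activator Gcr1, CTTCC, is in 7 of 17 promoters of the list (41.2%) against 46.0% of all promoters, an order that turned in a window of 500 bases before the start, at 76.5% against 65.9%.

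Isoenzyme pairs of this pathway differed in which form was higher. GLK1, the glucokinase gene that glucose represses, was at 2788 FPKM, 72.9 times HXK2, and HXK1, the hexokinase of the same kind, was at 378 FPKM, 9.87 times HXK2. ENO1 was at 1871 FPKM and ENO2, the enolase of fermenting cells, at 351 FPKM, a ratio of 5.33, although the copies are 94.8% identical. TDH1, the form of slow growth, reached 0.678 of TDH3, and TDH2 0.096 of TDH3. TDH2 and TDH3 are 95.8% identical, so their ratio depends on how shared reads were assigned. ADH2, which oxidises ethanol, was at 181 FPKM, 0.062 of ADH1, and PYK2 was at 90.3 FPKM, 0.206 of CDC19. PDC6 was at 13.0 FPKM, 0.0144 of PDC1. PFK27, which makes an activator of glycolysis, was at 10.2 FPKM, 0.129 of PFK26. GPD1, the glycerol-3-phosphate dehydrogenase of osmotic stress, was 4.20 times GPD2, at 341 and 81.2 FPKM. GLK1 lies in a merged locus with 3 other loci and HXK1 with 1, so their values may include reads of neighbours.

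All 15 genes of gluconeogenesis, the glyoxylate cycle and the Cat8 targets, a group that glucose represses, lay above the median of all loci. Their median was 262 FPKM, at the percentile 84.6, and the lowest was MDH2 at 85.4 FPKM. PCK1, whose product takes the first step of gluconeogenesis from oxaloacetate, was at 1516 FPKM, and FBP1, the fructose bisphosphatase gene, was at 1061 FPKM. JEN1, the lactate permease gene, was at 1349 FPKM, IDP2, for cytosolic isocitrate dehydrogenase, at 832 FPKM, and SFC1, the mitochondrial succinate-fumarate carrier gene, at 460 FPKM. The glyoxylate cycle enzymes differed among themselves, with the malate synthase gene MLS1 at 757 FPKM and the isocitrate lyase gene ICL1 at 171 FPKM. PCK1 was 3.46 times CDC19 and FBP1 was 9.45 times PFK1, which are the enzymes of the opposite direction of flow. FBP1 spans 1047 bp and PFK1 2964 bp, and the part of locus length in that ratio was not tested. The median of the group was still 0.263 of the glycolysis median. Within length classes, an alternative added after the data were seen, the median percentiles were 93.6 for the group and 97.3 for glycolysis. ACS1, the acetyl-CoA synthetase gene that glucose represses, was 2.07 times ACS2, at 126 and 60.8 FPKM.

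Another group under glucose repression, the genes for sucrose, maltose and galactose, was low. Their median over 17 genes was 14.4 FPKM, at the percentile 21.5, with 9 of the 17 in the lowest 25% of loci and none at 100 FPKM. SUC2, the invertase gene, was highest at 93.9 FPKM, followed by the galactose repressor gene GAL80 at 72.9 FPKM and the maltose permease gene MAL11 at 71.8 FPKM. GAL1, GAL10 and GAL7, the galactose enzymes, were at 13.6, 13.0 and 14.4 FPKM, and GAL2, the galactose permease, at 5.88 FPKM. The galactose enzymes need galactose as well as low glucose. GAL1, GAL7 and GAL10 are given beside the genes that the naming rule picked and were chosen after their values were seen. The maltase genes MAL12 and MAL32, which are 99.5% identical, were at 6.21 and 5.75 FPKM, and IMA1, for isomaltase, was lowest at 2.19 FPKM. The Mig1 word is in 8 of 17 promoters of these genes (47.1%), as shown for MAL33, and in 4 of 15 gluconeogenesis promoters (26.7%) and 5 of 18 hexose transporter promoters (27.8%), against 11.7% of all promoters.

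Of the 19 regulators of glucose repression, HAP4, the activator of respiratory genes, was highest at 658 FPKM, with the phosphatase gene GLC7 at 638 FPKM. SIP2 and SNF4, subunits of the Snf1 kinase complex, were at 195 and 118 FPKM, and SNF1, chosen after its value was seen, was at 53.5 FPKM. The repressor gene MIG1 was at 134 FPKM and REG1, which directs Glc7 to Snf1, at 123 FPKM. The lowest were MIG3 at 19.0 FPKM, SIP4, itself a target of Snf1, at 17.0 FPKM and the Snf3 and Rgt2 pathway gene STD1 at 10.01 FPKM. The group median was 64.7 FPKM.

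The hexose transporters were split into a few high genes and many near the low end. Yeast holds a large family of glucose carriers. Hxt1 and Hxt3 are low-affinity carriers of cells in plentiful glucose, Hxt6 and Hxt7 are high-affinity carriers that plentiful glucose represses, and Hxt5 is known from slow growth and stationary phase. The 16 HXT genes summed to 4557 FPKM. HXT6, HXT7 and HXT5 held 94.4% of it, at 1678, 1437 and 1188 FPKM, and ranked 173, 208 and 248 among all loci. HXT6 and HXT7 are 99.8% identical over their full length, so the split between them is uncertain.

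HXT1 to HXT4 together held 4.45% of the HXT signal. HXT3 was at 149 FPKM, HXT1 at 26.5 FPKM, HXT2 at 17.8 FPKM and HXT4 at 9.65 FPKM. HXT7 was 9.65 times and HXT5 7.98 times HXT3, whereas HXT1 was 0.178, HXT2 0.120 and HXT4 0.065 of it. The 9 genes numbered from HXT8 to HXT17 held 1.12%, with a range from 0.445 to 11.8 FPKM. Within that set HXT15 and HXT16 (11.8 and 10.7 FPKM) are 99.9% identical, HXT13 and HXT17 (4.49 and 6.87 FPKM) are 96.5% identical, and HXT9 and HXT11 (4.85 and 6.54 FPKM) are 97.2% identical. HXT8 was at 3.51 FPKM, HXT10 at 1.65 FPKM and HXT14 at 0.445 FPKM. The glucose sensors, which signal and do not carry sugar, were at 74.8 FPKM for SNF3, the high-affinity sensor, and at 16.8 FPKM for RGT2, the low-affinity one. The neighbouring levels of this order have no error, so it is not known which of them differ.

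**Figure D2:**
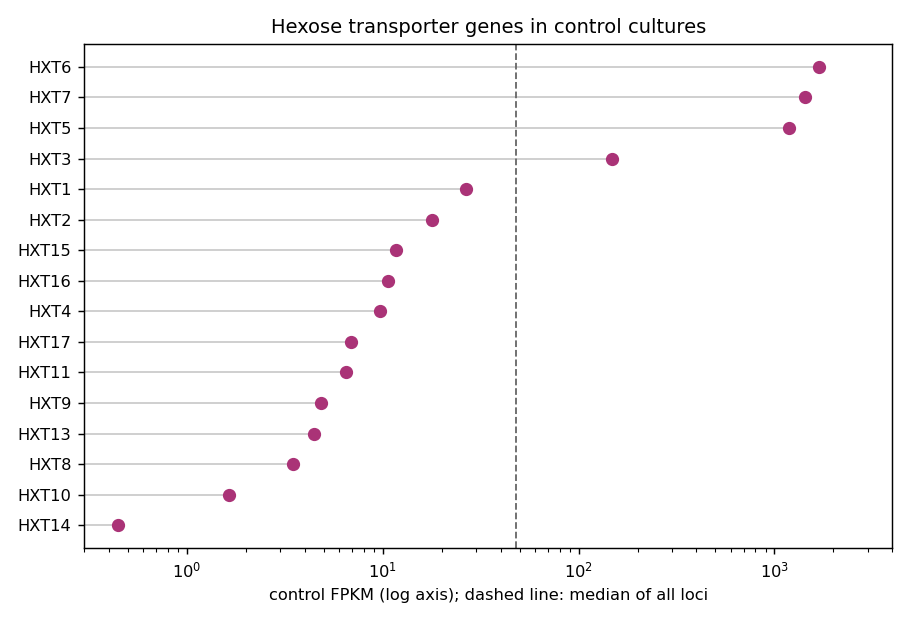
Control FPKM (log axis) of the 16 HXT genes, 1 point a gene, with a dashed line at the median of all loci, 47.7 FPKM. HXT6, HXT7, HXT5 and HXT3 lie above that line and the other 12 genes below it.

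In the treated cultures the same transporters led. In Tet, Dox and 4-ED cultures HXT7 stood at 1149, 1196 and 1156 FPKM, against 1437 FPKM in the controls. HXT5 was at 1058, 863 and 1239 FPKM with Tet, Dox and 4-ED, against 1188 FPKM in the controls. HXT1 was at 22.2, 19.4 and 24.3 FPKM with Tet, Dox and 4-ED, against 26.5 FPKM in the controls. The groups give 1 value each and the controls are shared, so these values stand side by side with no test.

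Genes of respiration were among the highest groups of the control cultures. All 33 nuclear genes for the respiratory chain and ATP synthase were above 100 FPKM, 29 were at 1000 FPKM or more and 31 were in the top 10% of loci. Their median was 2550 FPKM, 2.56 times the glycolysis median and 5.07 times that of the ribosomal proteins, and they held 5.34% of the summed FPKM. The cytochrome bc1 genes QCR6, QCR7 and QCR8 were at 10794, 6047 and 5245 FPKM, and the cytochrome oxidase genes COX13, COX7 and COX12 at 5661, 5090 and 4488 FPKM. The lowest were NDI1, the internal NADH dehydrogenase, at 541 FPKM, and the external forms NDE1 and NDE2 at 377 and 196 FPKM. The median length of these genes was 447 bp, against 1314 bp in the glycolysis list. Against protein-coding loci of their own length class, an alternative added after the data were seen, the respiratory genes had a median percentile of 97.3 and the glycolysis genes one of 97.3.

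Alternative forms that low oxygen favours were the lower member of each respiratory pair, to different degrees. CYC7 was at 1630 FPKM, 0.630 of CYC1 at 2587 FPKM, and COX5B was at 653 FPKM, 0.313 of COX5A at 2086 FPKM. AAC3, the anaerobic ADP/ATP carrier, was at 1.43 FPKM and AAC1 at 318 FPKM, against 1861 FPKM for PET9, the main carrier, also called AAC2. ANB1, the anaerobic form of the translation factor eIF5A and 91.1% identical to HYP2, was at 4.70 FPKM, against 1331 FPKM for HYP2. The anaerobic genes AAC3 and ANB1 were thus the furthest below their partners of all 47 pairs.

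**Figure D3:**
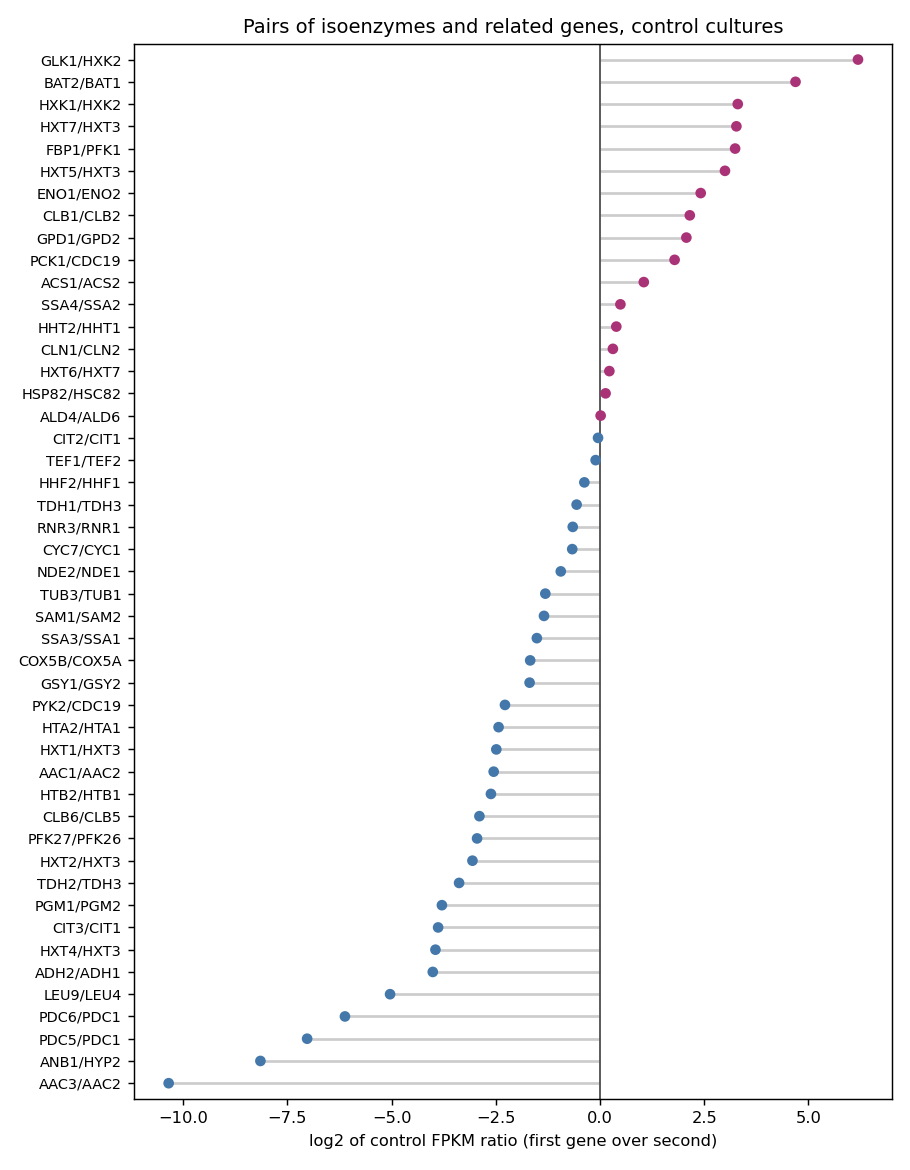
Log2 ratio of control FPKM, first gene over second, for 47 pairs of isoenzymes or related genes, with pink points above 0 and blue points below. GLK1 over HXK2 is highest at 6.19 and PET9 (AAC2) exceeds AAC3 at the other end, and 34 of the pairs are over 2 fold apart.

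The TCA cycle followed the respiratory chain. All 15 genes were above 100 FPKM, with a median of 786 FPKM at the percentile 94.7. Subunits of succinate dehydrogenase were high, with SDH3 at 3746, SDH2 at 2397 and SDH4 at 1632 FPKM, and the citrate synthase gene CIT1 was at 1856 FPKM. MDH1, the mitochondrial malate dehydrogenase, was at 1803 FPKM and FUM1, fumarase, at 1004 FPKM. The lowest were IDH2 at 524, KGD1 at 378 and LSC1 at 300 FPKM. CIT2, the peroxisomal citrate synthase, was at 1796 FPKM, 0.968 of CIT1, and CIT3 at 126 FPKM was 0.068 of it. The aldehyde dehydrogenase genes ALD4, mitochondrial, and ALD6, cytosolic, were level at 922 and 913 FPKM. Peroxisomal beta-oxidation, which burns fatty acids, was intermediate, with a median of 93.0 FPKM over 12 genes. The thiolase gene POT1 was highest at 261 FPKM and the acyl-CoA oxidase gene POX1, of the first step, was at 32.8 FPKM.

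**Figure D4:**
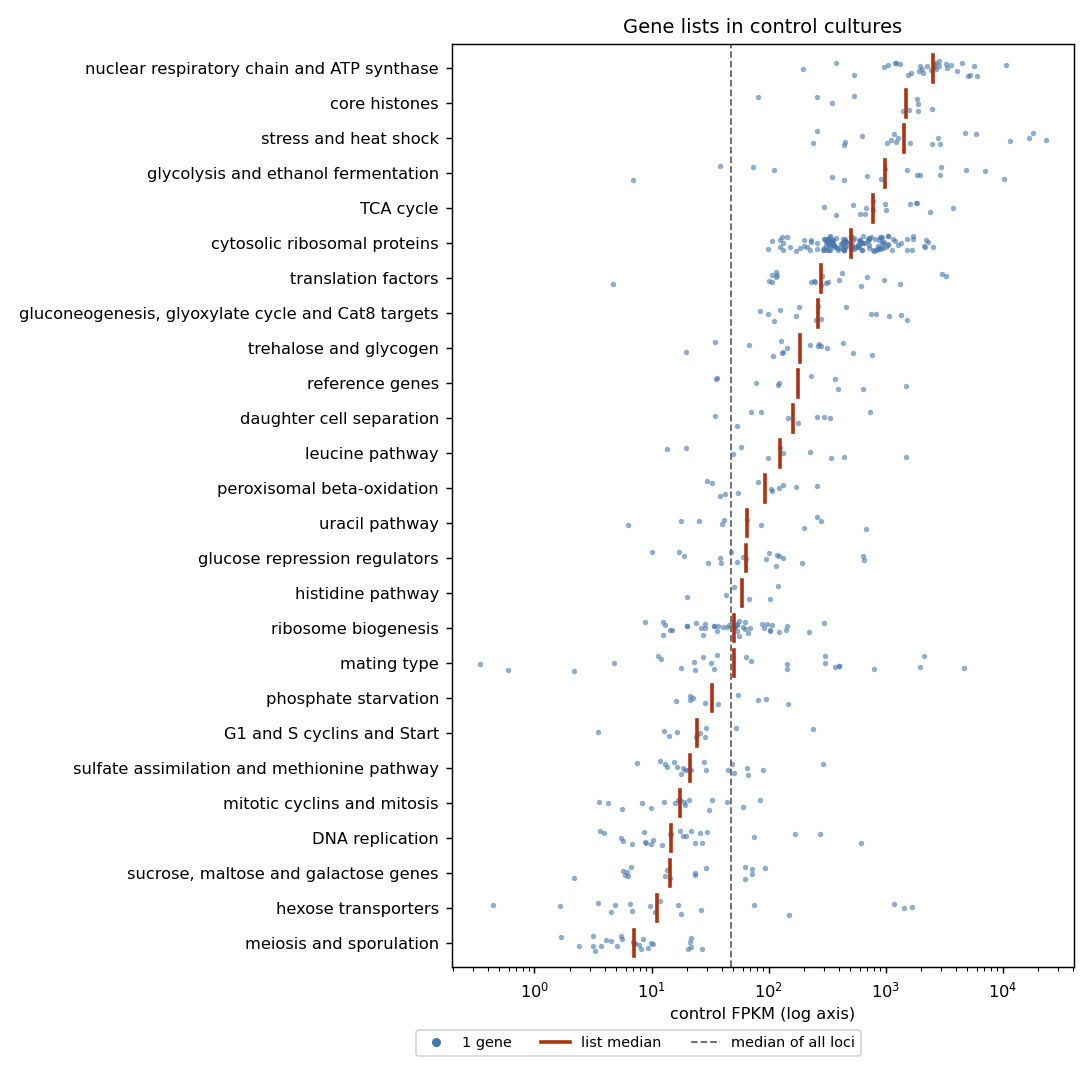
Control FPKM (log axis) of every gene in 26 lists, 1 point a gene, with red bars at the list medians and a dashed line at 47.7 FPKM, the median of all loci. Lists run from meiosis and sporulation, at a median of 7.08 FPKM, to the respiratory chain, at 2550 FPKM.

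Stress genes were also high, and their leading members were above those of respiration. Of the 21 genes of the list, 20 had a value, with a median of 1443 FPKM at the percentile 97.1, and 15 were at 1000 FPKM or more. Their median was 8.14 times that of a fixed list of 10 reference genes, and they held 5.65% of the summed FPKM. The reference genes themselves ran from 35.2 to 1483 FPKM around a median of 177 FPKM. SIP18, HSP26, SOD1 and HSP30 led, followed by the cell wall protein gene SPI1 at 5899 FPKM and DDR2, a DNA damage responsive gene, at 4798 FPKM. The list has no value for HSP12, the membrane-associated stress protein on chromosome VI. HSP12 is entered at 0 with the mark that its locus exceeded the read limit of Cuffdiff, so it is not silent and its level was not measured. Of the heat shock protein 70 genes, the stress-induced forms were at 635 FPKM for SSA4 and 445 FPKM for SSA3. The standing forms were at 1271 FPKM for SSA1 and 452 FPKM for SSA2. SSA1 and SSA2 are 96.4% identical, so the split between them depends on how shared reads were assigned. HSP82 and HSC82, which encode the heat shock protein 90 chaperones and are 91.7% identical, were at 1123 and 1024 FPKM. The catalase gene CTT1 was lowest at 241 FPKM.

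Of the 21 stress promoters, 11 hold the stress response element (52.4%), as do 9 of 16 promoters of trehalose and glycogen genes (56.3%) and 14 of 33 respiratory promoters (42.4%). The word occurs in 21.8% of the 5941 promoters of protein-coding genes. HSP26 is among the high genes without it in this window, and the highest member that holds it, SOD1, has 1 match in the sequence printed above, while TPS1 has 3.

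Trehalose and glycogen are the storage carbohydrates that yeast builds as growth slows. The 16 genes had a median of 185 FPKM, close to the 177 FPKM of the 10 reference genes. They were longer, with a median length of 2122.5 bp against 1405.5 bp in the reference list. Within length classes, an alternative added after the data were seen, their median percentile was 93.9, against 73.6 for the reference genes. TPS1, for trehalose-6-phosphate synthase, was highest at 768 FPKM, followed by GLC3, the glycogen branching enzyme, at 532 FPKM and GSY2, the main glycogen synthase, at 430 FPKM. GPH1, which breaks glycogen down, was at 316 FPKM, and the neutral trehalase gene NTH1 at 279 FPKM. GSY1 was 0.310 of GSY2, and PGM1 at 19.6 FPKM was 0.072 of PGM2, the main phosphoglucomutase.

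Ribosomal proteins were high and ribosome biogenesis was not, and the gap between these groups was large. The 137 genes of cytosolic ribosomal proteins had a median of 503 FPKM at the percentile 91.8, and all lay above the median locus. They held 4.98% of the summed FPKM, against 5.34% for the 33 respiratory genes. That order turned with FPKM multiplied by length, at 4.37% against 3.34%, and among loci of at least 300 bp, at 6.41% against 4.95%. Length here was the span from the start to the end of a locus, any introns included. The part of introns in the turned order was not tested. RPS20 was highest at 2537 FPKM, with RPL29 at 2323, RPS31 at 2231, RPL32 at 2186, RPS21B at 2120 and RPS26A at 1729 FPKM. The lowest were RPS9A at 124, RPL22B at 107 and RPL22A at 99.4 FPKM. The small subunit had a median of 534 FPKM over 56 genes and the large subunit one of 443 FPKM over 76 genes.

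Most ribosomal proteins come from a pair of genes. Of 57 pairs, 22 were over 2 fold apart, and the median ratio of the higher to the lower copy was 1.60. RPS14A was at 873 FPKM and RPS14B at 132 FPKM, a ratio of 6.59, and RPL15A was 6.03 times RPL15B. At the level end, RPL11B and RPL11A were at 462 and 457 FPKM. In all, 54 of the 137 genes have a copy of at least 90% identity over 50% of their length, so such ratios depend on how shared reads were assigned.

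The 44 ribosome biogenesis genes, whose products assemble the subunits in the nucleolus, had a median of 51.0 FPKM. This was 0.101 of the ribosomal protein median, 0.288 of the reference gene median and near the 47.7 FPKM of all loci. In the top 10% there were 0 of the 44. The median length was 1422 bp, against 771 bp for ribosomal protein genes. Within length classes, an alternative added after the data were seen, the median percentiles were 44.3 for biogenesis and 87.0 for ribosomal proteins. EBP2 was highest at 297 FPKM, followed by TIF6 at 223, RLP7 at 144, RLP24 at 141, NOP15 at 123 and RPF1 at 106.1 FPKM. The lowest were the U3 processome and rRNA processing genes RRP5 at 12.6, UTP20 at 12.5 and UTP10 at 8.75 FPKM. The PAC word is nearly universal in this group, in 42 of 44 promoters (95.5%) against 20.2% of all promoters, and the genes that hold it ranged from 8.75 to 297 FPKM. In the sequences above it occurs 3 times in EBP2 and 1 time in UTP10. The Rap1 word, ACCCA and ACA with 1 base between, is in 9 of 137 ribosomal protein promoters (6.57%) against 1.46% of all promoters.

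Translation factors lay between these groups, with a median of 283 FPKM over 22 genes. TEF2 and TEF1, which encode the elongation factor eEF1A and are 99.9% identical, were at 3286 and 3055 FPKM. HYP2 was followed by EFB1 at 973, SUI1 at 691 and TIF11 at 620 FPKM. The initiation factor genes TIF1 and TIF2, named outside the rule and 99.5% identical, were at 279 and 311 FPKM.

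Genes of the cell cycle machinery were low, apart from a few. Among 11 genes of Start and the G1 and S cyclins, the median was 24.6 FPKM. SIC1, the inhibitor that holds S phase back, was highest at 239 FPKM, followed by the kinase gene CDC28 at 53.1 FPKM. The G1 cyclin genes CLN1, CLN2 and CLN3 were at 29.4, 23.8 and 28.4 FPKM, and the S phase cyclin genes CLB5 and CLB6 at 26.1 and 3.51 FPKM. The Start transcription factors were at 24.6 FPKM for MBP1, 16.4 FPKM for SWI6 and 12.7 FPKM for SWI4, and WHI5, the repressor of Start, was at 14.1 FPKM. SWI6 was named outside the rule. The word of the Swi4 factor, CGCGAAA, is in 0 of the 11 promoters against 3.64% of all promoters, and in the 500 bases before the start in 9.09% against 5.87%.

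The 17 mitotic genes had a median of 17.6 FPKM, with 9 of them in the lowest 25% of loci. CDH1, which keeps the anaphase-promoting complex active in G1, was highest at 85.2 FPKM, and the checkpoint gene MAD2 was at 60.2 FPKM. The mitotic cyclin genes CLB1 and CLB2 were at 44.4 and 9.98 FPKM, a ratio of 4.45. The polo kinase gene CDC5 was at 21.0 FPKM. The lowest were the separase gene ESP1 at 5.60, the Aurora kinase gene IPL1 at 4.23 and BUB1 at 3.53 FPKM. Of the alpha-tubulin genes TUB3 was at 48.8 FPKM, 0.403 of TUB1.

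DNA replication genes had a median of 14.6 FPKM at the percentile 21.7, and 14 of 25 lay in the lowest 25%. Ribonucleotide reductase was uneven, with RNR4 at 612 and RNR2 at 273 FPKM for the small subunits and RNR1 at 8.68 and RNR3 at 5.52 FPKM for the large ones. RFA3 and RFA2, of the single-strand binding complex, were at 168 and 74.6 FPKM. The primase gene PRI2 was at 29.9 FPKM and POL30, the sliding clamp, at 26.9 FPKM. The lowest besides RNR3 were CDC6, which loads the helicase, at 3.96 FPKM and CDC45, a part of the active helicase, at 3.60 FPKM. The median length of the list was 2328 bp, and against loci of their own length class the median percentile was 17.2. The MCB word, through which the factor MBF acts at the onset of S phase, is in 12 of 25 promoters (48.0%) against 3.10% of all promoters. It occurs 2 times in each of the RFA2 and CDC45 sequences above.

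Core histones were at the other end from replication. Their mRNAs are made in S phase. The 10 histone genes had a median of 1505 FPKM, and the median of the replication genes was 0.00970 of it. HHT2 was at 2495, HHT1 at 1903, HTA1 at 1876, HHF1 at 1840, HTB1 at 1593 and HHF2 at 1418 FPKM. The second copies of H2A and H2B were lower, with HTA2 0.185 of HTA1 and HTB2 0.163 of HTB1. The linker histone gene HHO1 was lowest at 81.3 FPKM. The histone genes have a median length of 399 bp, and 6 of the 10 have a near-identical copy.

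Genes that separate daughter cells from their mothers had a median of 162 FPKM over 10 genes. The chitinase gene CTS1 was highest at 741 FPKM, followed by PIR1 at 334, DSE1 at 297, DSE2 at 257, ASH1 at 177 and AMN1 at 146 FPKM, and DSE4 was lowest at 34.6 FPKM. Their median ratios to the controls were 0.720, 0.655 and 0.661 in Tet, Dox and 4-ED cultures, against 1.05, 0.982 and 0.990 over all loci of at least 1 FPKM.

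The mating type markers fitted the labelled MATa haploid. The 6 markers of a cells summed to 7280 FPKM, the 5 of alpha cells to 90.2 FPKM and the 7 of sporulating diploids to 98.5 FPKM. None of the 18 was listed at 0. The marker medians, in the same order, were 272, 23.5 and 10.4 FPKM. Most of the sum for a cells came from MFA2 and MFA1. The whole mating type list held 0.687% of the summed FPKM, and 0.393% among loci of at least 300 bp. The a-factor genes MFA2 and MFA1 were at 4712 and 1955 FPKM, the agglutinin gene AGA2 at 399 FPKM and the alpha-factor receptor gene STE2 at 144 FPKM. BAR1, the protease that degrades alpha-factor, was at 36.3 FPKM and STE6, the a-factor exporter, at 31.99 FPKM, both under the median locus. For alpha cells, MF(ALPHA)1 was at 27.4, MF(ALPHA)2 at 34.0, SAG1 at 23.5, the a-factor receptor gene STE3 at 4.77 and MATALPHA1 at 0.593 FPKM, with its silent copy HMLALPHA1 at 0.341 FPKM. The reference genome carries MATalpha, so reads of the a1 gene of MATa can only be placed at the silent cassette HMR, where HMRA1 was at 2113 FPKM. HMRA2 was at 802 FPKM, but its whole length is also found in MATALPHA2 and HMLALPHA2, so the split of reads among them is uncertain. MATALPHA2 and HMLALPHA2, identical to each other and sharing sequence with HMRA2, were at 301 and 303 FPKM. The mating pathway genes STE18, STE4, FUS3, GPA1, STE5, FAR1, STE12 and FUS1 were at 373, 143, 71.5, 64.4, 23.3, 17.9, 11.9 and 11.3 FPKM. RME1, the haploid repressor of meiosis, was at 398 FPKM. HO, the mating type switching endonuclease, was at 2.18 FPKM.

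Genes of meiosis and sporulation had the lowest median of the nuclear lists. Their median was 7.08 FPKM over 25 genes, 20 of them in the lowest 25% and 0 above the median locus. The glucanase gene SPR1 was highest at 26.9 FPKM, with NDT80 at 21.8 and IME1, the master inducer, at 21.5 FPKM. The lowest were SPO21 at 3.14, SPR28 at 2.41 and SPO74 at 1.68 FPKM.

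The loci named in the genotype behaved unequally. LEU2 (YCL018W, chromosome III, 91324 to 92418) stood at 0 FPKM in every group, treated and control, while its neighbour NFS1, an essential cysteine desulfurase gene, was at 101 FPKM in the controls. MET17 (YLR303W, chromosome XII, 732542 to 733876), which is also called MET15, was at 0 in the same 4 groups. YLR302C, which overlaps it, was at 0 in the controls. The next gene, ACO1, was at 994 FPKM. The alleles leu2-0 and met15-0 are deletions of the whole coding sequence.

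HIS3 (YOR202W, chromosome XV, 721946 to 722608) was at 64.5 FPKM, against 40.1 FPKM for MRM1 and 90.5 FPKM for DED1 on either side, and these loci were merged in the counting. The allele his3-1 is an internal deletion that leaves part of the gene. URA3 (YEL021W, chromosome V, 116167 to 116970) was at 234.9 FPKM, with GEA2 at 9.86 and TIM9 at 626 FPKM beside it. URA3 is written in the genotype as carrying the tTA construct, and its values were 322, 257 and 298 FPKM with Tet, Dox and 4-ED. The tTA gene is no part of the yeast annotation and was not analysed here.

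**Figure D5:**
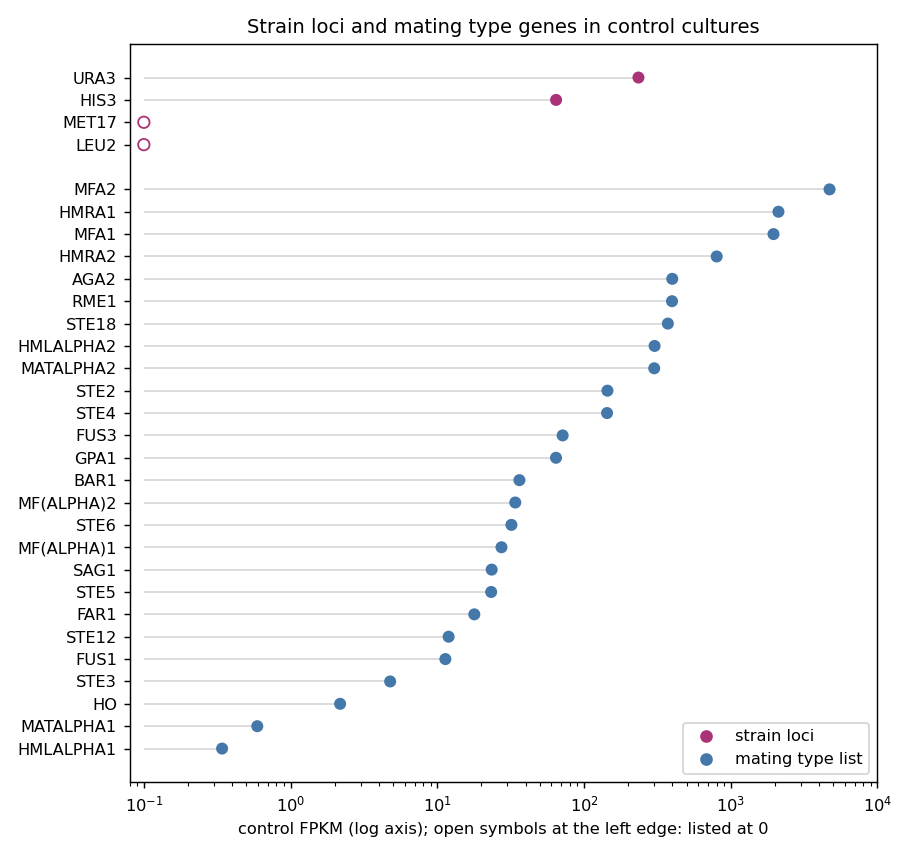
Control FPKM (log axis) of the 4 strain loci (pink) and the 26 mating type genes (blue), with open symbols at the left edge for loci listed at 0. LEU2 and MET17 are at 0, URA3 and HIS3 at 234.9 and 64.5 FPKM, and the a-factor genes MFA2 and MFA1 lie far above the alpha-factor genes.

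Pathways around these markers were also measured. The 6 other histidine genes had a median of 59.5 FPKM, from HIS1 at 120 to HIS7 at 19.97 FPKM. In the leucine pathway the median was 126 FPKM over 11 genes. BAT2, the cytosolic branched-chain aminotransferase, was at 1493 FPKM, 25.8 times BAT1, the mitochondrial one, at 57.9 FPKM, and LEU9 at 13.5 FPKM was 0.030 of LEU4 at 443 FPKM. Sulfate assimilation and methionine synthesis had a median of 21.2 FPKM over 20 genes. CYS4, which makes cystathionine, was highest at 292 FPKM, SAM1 was at 17.8 FPKM, 0.394 of SAM2, both for S-adenosylmethionine synthetase, and SUL1, a sulfate permease, and MET5, of sulfite reductase, were at 11.9 and 7.49 FPKM. In the uracil pathway URA10 was at 677 FPKM and the median was 64.9 FPKM. Phosphate starvation genes had a median of 32.9 FPKM over 10 genes, with PHO8, the vacuolar phosphatase, at 148 FPKM and PHO5, the secreted phosphatase, at 28.5 FPKM.

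Few protein-coding loci were listed at 0 FPKM. In all, 387 loci were listed at 0 FPKM, of which 19 had exceeded the read limit, 18 of them in the ribosomal DNA and the other HSP12. The other 368 included 287 of 299 tRNA loci (96.0%), 36 of 694 ORF names without a RefSeq protein-coding gene and 42 of 5957 protein-coding loci (0.705%). Of the 42, 17 were also at 0 in all 3 treated groups and 19 had a deposited locus that spanned over 5000 bp. For some of the 19 no other locus was listed with the same span. For those 19 a value of 0 need not mean a silent gene, because the assignment of reads within such a span was not tested. Of the 42, 4 had a gene symbol, namely LEU2, MET17, RRT7 and the mitochondrial ATP8. RRT7 and ATP8 were chosen after their values were seen. At under 1 FPKM there were 510 loci, the zeros included, and 92 of them were protein-coding. Without counts, a value of 0 has no limit of detection here.

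Treated values of the same lists are set beside the controls here. The median treated to control ratio of the glycolysis list was 0.954, 0.872 and 0.782 in Tet, Dox and 4-ED cultures. That of gluconeogenesis was 1.26, 0.975 and 1.33, that of the respiratory chain 1.21, 1.01 and 1.14, and that of the stress genes 1.02, 0.887 and 0.943. Ribosomal proteins stood at 1.27, 1.15 and 1.03, DNA replication at 1.27, 1.23 and 1.13, and ribosome biogenesis at 1.04, 1.02 and 0.883. Over all loci of at least 1 FPKM the ratios were 1.05, 0.982 and 0.990, in the order Tet, Dox and 4-ED throughout. The 3 comparisons share their controls, and no test was made on these pooled values.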

How the data were processed

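RNA from 12 yeast cultures was sequenced, and only the 3 control cultures are the subject here. Per the labels and the methods, mRNA-selected TruSeq libraries were sequenced on a NextSeq 500. The authors checked reads with FastQC, aligned them with Bowtie2 (Ensembl genome and annotation, R64) and quantified loci in Cuffdiff. Versions of these tools are not given in the sources used here. The deposited FPKM values are 1 per locus and group, scaled by Cuffdiff within each of 3 comparisons. The deposited tables also hold the authors' fold changes, test statistics, p-values and q-values, which were not used. Groups follow the treatment label of each sample.

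Of 7080 loci, 1 names no gene and 19 exceeded the read limit, leaving 7060. A RefSeq locus tag matched 5999 of the 7080, with 5363 of them at identical coordinates. Percentiles are shares of these loci at or below a value. FPKM ratios carry no pseudocount, and ratios to the controls use loci of at least 1 FPKM in both groups. Near-identical copies were searched with blastn 2.17.0, at 90% identity over 50% of the length. Whether the libraries kept strand is not stated, so overlapping antisense loci cannot be told apart. Python 3.11.15 was used.

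The members and the 28 lists were chosen with earlier results of these data known. Named genes are the 20 highest protein-coding loci, all hexose transporters, strain loci and mating type genes, all pair members, and up to 6 highest and 3 lowest genes of each other list. Genes beyond this were named after their values were seen and include promoter examples and neighbours of the strain loci. Alternatives were the other control tables, other locus filters, a rough share of fragments and other thresholds. A pseudocount of 1 FPKM and a promoter window of 500 bases were also used. Depth per locus is unknown, so no interval is given.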

Additional observations from a re-analysis of the deposited data

How the results depend on the processing

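No paired analysis was possible because the deposited tables hold 1 value per group and no test was made. For the same reason no replicate could be left out, and a value was taken to have moved when it differed from the reported one by over 1.5 times. Of 517 recomputed values, 473 stayed within that bound and 44 moved further. The control values of the other tables moved none. They gave many of the 517 and could not move so far, being the same libraries times a near-constant factor. The count of 473 is therefore no measure of stability. FPKM multiplied by the span of the locus, any introns included, gave a rough share of fragments. It moved the shares of 21 lists beyond the bound and left those of 6 within it. By this measure the percent held by gluconeogenesis was 0.871, by hexose transporters 0.613 and by the respiratory chain 3.34. It was 0.258 for ribosome biogenesis and 0.135 for DNA replication. The median percentile of the hexose transporters was 10.7 among protein-coding loci and 8.77 within length classes, an alternative chosen after seeing the data. Under 5 FPKM there were 828 loci, and under 0.5 FPKM 443. In promoters of 500 bases before the start, the Cat8 and Sip4 word, CGG and GGA with 6 bases between, was in 60.0% of gluconeogenesis promoters against 6.87% of all, whereas in the main window it was in 6.67% against 3.37%. The Mig1 words were in 72.2% of hexose transporter promoters against 22.9% of all, and in the main window in 27.8% against 11.7%. The word bound by Rap1 was in 32.8% of ribosomal protein promoters against 3.13%. PAC shares were 93.2% of ribosome biogenesis promoters against 28.1%. A pseudocount of 1 FPKM moved 1 of 47 pair ratios, that of AAC3, beyond the bound.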

Other observations

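Loci of mitochondrial DNA, outside the nuclear lists, were read in the same control libraries. Of 55 loci, 29 were listed at 0 FPKM, among them all 24 tRNA loci. The ATP synthase subunit gene OLI1 was at 1762 FPKM and the intron-encoded endonuclease locus SCEI, which lies within the large rRNA gene, at 1499 FPKM. VAR1, a ribosomal protein gene, was at 111 FPKM and COX1 at 91.5 FPKM. COX2, ATP6, COX3 and COB were at 4.54, 2.26, 1.85 and 1.65 FPKM, and ATP8 at 0, although their partners in the nuclear list were at 196 FPKM or more. Yeast mitochondrial mRNAs carry no poly(A) tail, and the libraries were mRNA-selected. The part of that selection in these levels was not tested. With Tet, Dox and 4-ED, OLI1 was at 2149, 1727 and 2995 FPKM, against 1762 FPKM in the controls, and COB at 2.25, 2.01 and 5.15 FPKM, against 1.65 FPKM in the controls, and the median ratio of 4-ED to control over the 22 such loci of at least 1 FPKM in both groups was 1.67. The same ratio was 1.15 with Tet and 1.07 with Dox, and over all loci the ratios in Tet, Dox and 4-ED cultures were 1.05, 0.982 and 0.990. In the controls 33 of the 55 loci were under 1 FPKM and 42 under 10 FPKM, so the mitochondrial ratios rest partly on low values. Of the 55, 21 share a merged locus.

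Small nucleolar and small nuclear RNA loci, 81 in number, had a median of 99.5 FPKM, and 2 of them were listed at 0. The 694 ORF names without a RefSeq protein-coding gene held 11.1% of the summed FPKM, at a median of 15.0 FPKM.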
